A study of Arabidopsis thaliana with 9 samples.

Results

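Leaves of hac1-2 were compared with leaves of hac1-1, which are 2 T-DNA insertion lines of the same gene, HAC1, in Arabidopsis thaliana ecotype Col-0. The comparison used 6 of the 9 RNA sequencing libraries of the study, with 3 from hac1-2 (SALK_136314) and 3 from hac1-1 (SALK_080380), chosen by their genotype labels. The 3 WT (Col-0) libraries are given as a reference level. All plants were untreated and grown in a cycle of 20 h light and 4 h dark with 28 µmol photons per m2 per s, and whole leaves 12 to 14 were taken at day 49 after sowing. The mutant leaves are labelled non-senescent and the WT leaves senescent. The site of each insertion within HAC1 was not given in the sources used here, and each line is a single insertion allele. The design text names 1 biological replicate, so p-values measure the spread between these libraries, which may be technical.

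HAC1 is a histone acetyltransferase of the CBP family, a group of large coactivators that add acetyl groups to histone tails and are linked to active transcription. A T-DNA insertion can lower, shorten or leave in place the transcript of the gene it interrupts, so alleles of 1 gene need not be alike. As a leaf senesces, chlorophyll is broken down and the genes of photosynthesis are turned down, while stress, hormone and nutrient recycling genes are turned up.

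Of 33323 genes in the count table, 16560 passed the filter on low counts and were tested. Libraries held 5750097 to 9461600 counts, and 18S ribosomal RNA took 12.1 to 14.4% of them in hac1-2, 13.9 to 21.0% in hac1-1 and 13.0 to 15.6% in WT. Levels are given as CPM, counts scaled to the library total after TMM adjustment, where 3 counts correspond to 0.318 to 0.520 CPM. Changes are log2 fold changes of hac1-2 over hac1-1, and a gene is called where its adjusted p was under 0.05 (edgeR quasi-likelihood test, Benjamini-Hochberg).

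HAC1 itself differed between the lines. HAC1 (AT1G79000, a protein-coding gene at chr1:29716350-29724748, minus strand) had 151, 133 and 122 CPM in hac1-2 libraries, against 58.6, 72.7 and 64.1 CPM in hac1-1 libraries and 155 ± 10.5 CPM in WT (SD, n = 3). Every hac1-2 library lay above every hac1-1 library, and the log2 change was 1.05 ± 0.12 (SE, adjusted p = 3.33e-06), with a 95% interval of 0.81 to 1.29. The hac1-2 level lay near that of WT, so the HAC1 count does not check the hac1-2 label. Per transcript length, HAC1 averaged 22.6 FPKM in hac1-2, 10.7 FPKM in hac1-1 and 24.8 FPKM in WT, while its paralogue HAC12 averaged 12.5 FPKM in hac1-2, 15.5 FPKM in hac1-1 and 11.8 FPKM in WT. The 9 other measured histone acetyltransferase genes had log2 changes of -0.35 to 0.18, the smallest adjusted p among them was 0.105, and DESeq2 and limma called only HAC1 in this list.

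The gene next to HAC1 was also higher in hac1-2. AT1G78995, which encodes an uncharacterized protein (chr1:29715072-29716255, minus strand), begins 94 bases past the annotated end of HAC1 on the same strand. The bases between the 2 genes are shown because they are the whole gap between the called pair, read 5′ to 3′ on the minus strand of TAIR10.1 (chr1:29716256-29716349).
Gap between HAC1 and AT1G78995: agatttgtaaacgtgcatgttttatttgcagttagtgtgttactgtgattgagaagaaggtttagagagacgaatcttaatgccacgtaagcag

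AT1G78995 had 39.2, 41.5 and 36.2 CPM in hac1-2, against 8.50, 13.0 and 11.4 CPM in hac1-1 and 27.2 ± 5.46 CPM in WT (SD, n = 3). The groups did not overlap, and its log2 change of 1.83 ± 0.18 (SE, adjusted p = 5.22e-07) was larger than that of HAC1. On the other side, AT1G79010, whose annotation lies 47 bases from the start of HAC1, averaged 53.1 ± 6.61 CPM in hac1-2 and 52.3 ± 0.537 CPM in hac1-1 (SD, n = 3 each), with a log2 change of 0.02 (adjusted p = 0.968). Of the 5 annotated genes on each side of HAC1, 8 were tested, and the other called one was PSBR, a subunit of photosystem II. The counting strand was not given in the sources used here, so reads of a gene and of an antisense partner cannot be told apart.

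**Figure D1:**
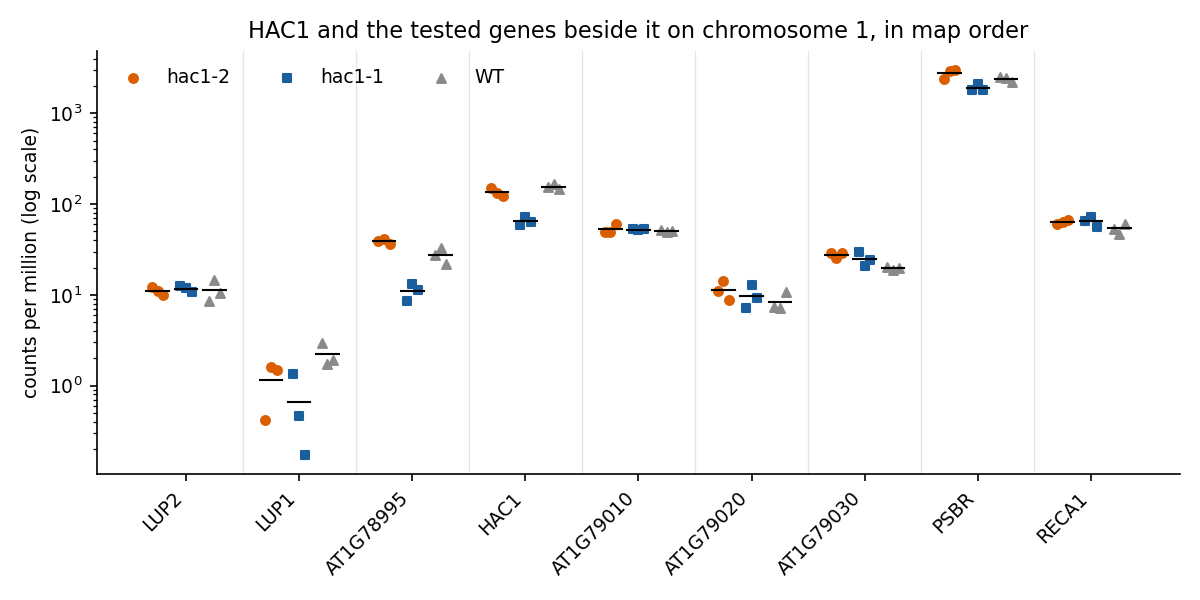
CPM on a log axis for HAC1 and the 8 tested genes among its 5 annotated neighbours on each side, in map order, with 1 point per library and a bar at each mean of 3. HAC1 and AT1G78995 are lower in all 3 hac1-1 libraries than in any hac1-2 library, while AT1G79010 on the other side averages 53.1 CPM in hac1-2 and 52.3 CPM in hac1-1.

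Across the transcriptome, 470 genes were called, 2.84% of those tested. Of these, 308 (1.86% of tested genes) were higher and 162 (0.978%) lower in hac1-2, and 125 (0.755%) changed at least 2-fold, 87 upward (0.525%) and 38 downward (0.229%). Groups did not overlap for 460 of the called genes (2.78% of tested genes). Among all tested genes, called or not, 9.85% were higher and 8.36% lower in every hac1-2 library. The median log2 change over all tested genes was -0.01. By edgeR, 2376 of the 16560 tested genes had an unadjusted p under 0.05. Leaving out hac1-1 replicate 3 gave 240 called genes, leaving out hac1-2 replicate 2 gave 249 and leaving out hac1-2 replicate 3 gave 204. Limma on log2(FPKM + 1) called 252 genes, 227 of them shared with the 470.

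Of the gene lists, photosystems and light harvesting held the most called genes by number. Of 47 measured genes of photosystems and light harvesting, 26 (55.3%) were called higher in hac1-2, against 1.86% of all tested genes. Log2 changes were above 0 for 46 of the 47. The list median was 0.46, against -0.01 over all tested genes, and the called members ran from 0.38 to 1.08. They covered the outer antenna (LHCB1, LHCB2, LHCB3), the inner antenna (LHCB5, LHCB6), the photosystem I antenna (LHCA1 to LHCA4) and subunits of both photosystems. The summed level of the list was 45122 to 47624 CPM in hac1-2 libraries, 33096 to 35153 CPM in hac1-1 libraries and 37495 to 39326 CPM in WT libraries. The mean of WT lay between the means of the lines for 25 of the 26 genes.

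LHCB1.4, an antenna protein of photosystem II, had 140.5, 173 and 147 CPM in hac1-2, against 51.4, 92.3 and 74.1 CPM in hac1-1 and 119 ± 13.8 CPM in WT (SD, n = 3). LHCB1.1, another copy of the same antenna protein, had 1604, 1719 and 1814 CPM in hac1-2, against 879, 926 and 821 CPM in hac1-1 and 1149 ± 26.3 CPM in WT (SD, n = 3). Both genes were separated between the lines with no overlap, with log2 changes of 1.08 ± 0.15 for LHCB1.4 (SE, adjusted p = 5.77e-05) and 0.97 ± 0.10 for LHCB1.1 (SE, adjusted p = 8.03e-07). The neighbouring copies LHCB1.2 and LHCB1.3 changed by 0.56 and 0.45, and LHCB1.3 lost its call without hac1-1 replicate 1, hac1-1 replicate 3 or hac1-2 replicate 3. LHCB1.1, LHCB1.2 and LHCB1.3 are nearly identical in coding sequence, so how their reads were divided is uncertain.

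LHCA4, in the antenna of photosystem I, had 3875, 3928 and 4075 CPM in hac1-2, against 2758, 3034 and 2577 CPM in hac1-1 and 3411 ± 222 CPM in WT (SD, n = 3). PSBR, a subunit near the oxygen-evolving complex, had 2393, 2910.0 and 3002 CPM in hac1-2, against 1795, 2130.2 and 1808 CPM in hac1-1 and 2403 ± 156 CPM in WT (SD, n = 3). Again no hac1-1 library reached the lowest hac1-2 library, and the changes were 0.51 ± 0.10 for LHCA4 and 0.53 ± 0.11 for PSBR (SE, adjusted p = 0.00353 and 0.0045). PETE2, the electron carrier plastocyanin, changed by 0.56 ± 0.11 and PSAK, a photosystem I subunit, by 0.64 ± 0.13 (SE, adjusted p = 0.0028 and 0.00626).

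The count for this list was 14 without hac1-1 replicate 3, 16 without hac1-2 replicate 2, 14 without hac1-2 replicate 3 and 16 by limma on log2(FPKM + 1). The mesophyll and bundle sheath marker list shares genes with the photosynthesis lists. Of its 8 measured members, 3 (37.5%) were called higher (RBCS1A, CA2 and LHCB1.2), against 1.86% of all tested genes, and no member was at 0. The list summed to 2433 to 2520 CPM in hac1-2, 1612 to 1824 CPM in hac1-1 and 1968 to 2114 CPM in WT. The part of this list in the result was not tested. In whole leaves, fewer cells of a type and less RNA per cell cannot be told apart.

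Some Calvin cycle genes, which fix carbon, were also higher in hac1-2. All 20 measured Calvin cycle genes had log2 changes above 0, and 8 of them passed the test, with a list median of 0.38. Those 8 are 40% of the list, against 1.86% of all tested genes called higher. RBCS1A, a small subunit of Rubisco, had 752, 731 and 778 CPM in hac1-2, against 452, 505 and 495 CPM in hac1-1 and 661 ± 84.1 CPM in WT (SD, n = 3). RCA, the Rubisco activase, had 4617, 4619 and 5311 CPM in hac1-2, against 3596, 3127 and 3648 CPM in hac1-1 and 5351 ± 1009 CPM in WT (SD, n = 3). Neither gene overlapped between the lines, with changes of 0.64 ± 0.11 for RBCS1A and 0.49 ± 0.12 for RCA (SE, adjusted p = 0.000685 and 0.0184). RBCS3B changed by 0.73 ± 0.14 and RBCS2B by 0.84, 2 similar neighbouring Rubisco genes whose reads may be shared, and GAPB, a glyceraldehyde-3-phosphate dehydrogenase subunit, by 0.52 ± 0.12. The count was 5 without hac1-1 replicate 1, 4 without hac1-1 replicate 3, 5 without hac1-2 replicate 1, 2 without hac1-2 replicate 3 and 3 by limma on log2(FPKM + 1).

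Called genes of chlorophyll synthesis were higher in hac1-2, and those of breakdown lower. Of 23 measured synthesis genes, 5 were higher in hac1-2 (HEMA1, CHLH, CHLM, CRD1 and PORB), and 22 had log2 changes above 0. The 5 are 21.7% of the list, against 1.86% of all tested genes called higher. CHLH, the large subunit of magnesium chelatase, had 355, 314 and 360.5 CPM in hac1-2, against 233, 226 and 228 CPM in hac1-1 and 259.8 ± 13.3 CPM in WT (SD, n = 3). HEMA1, the glutamyl-tRNA reductase that opens the pathway, had 274, 264 and 275 CPM in hac1-2, against 212, 195 and 186 CPM in hac1-1 and 273 ± 6.34 CPM in WT (SD, n = 3). The lines did not overlap for either gene, with changes of 0.58 ± 0.10 for CHLH and 0.45 ± 0.10 for HEMA1 (SE, adjusted p = 0.00118 and 0.011).

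Of 14 measured chlorophyll breakdown genes, the 2 called ones were lower in hac1-2. They made up 14.3% of the list, against 0.978% of all tested genes called lower. NYE1, which helps take magnesium out of chlorophyll, had 16.5, 12.7 and 15.1 CPM in hac1-2, against 23.3, 26.8 and 21.5 CPM in hac1-1 and 22.8 ± 2.36 CPM in WT (SD, n = 3). NYC1, a chlorophyll b reductase, had 271, 239.6 and 260.3 CPM in hac1-2, against 299, 346 and 384 CPM in hac1-1 and 330.3 ± 39.9 CPM in WT (SD, n = 3). Both were lower in every hac1-2 library, by log2 changes of -0.70 ± 0.17 for NYE1 and -0.42 ± 0.11 for NYC1 (SE, adjusted p = 0.0214 and 0.0442). Both lost their calls without hac1-1 replicate 2, hac1-2 replicate 2 or hac1-2 replicate 3, NYC1 also without WT replicate 1, hac1-1 replicate 3 or hac1-2 replicate 1, and limma on log2(FPKM + 1) called 0 of the 14. Without hac1-2 replicate 3 the synthesis list had 1 called gene, without hac1-1 replicate 3 it had 2, and without hac1-1 replicate 1 or hac1-2 replicate 1 it had 3.

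**Figure D2:**
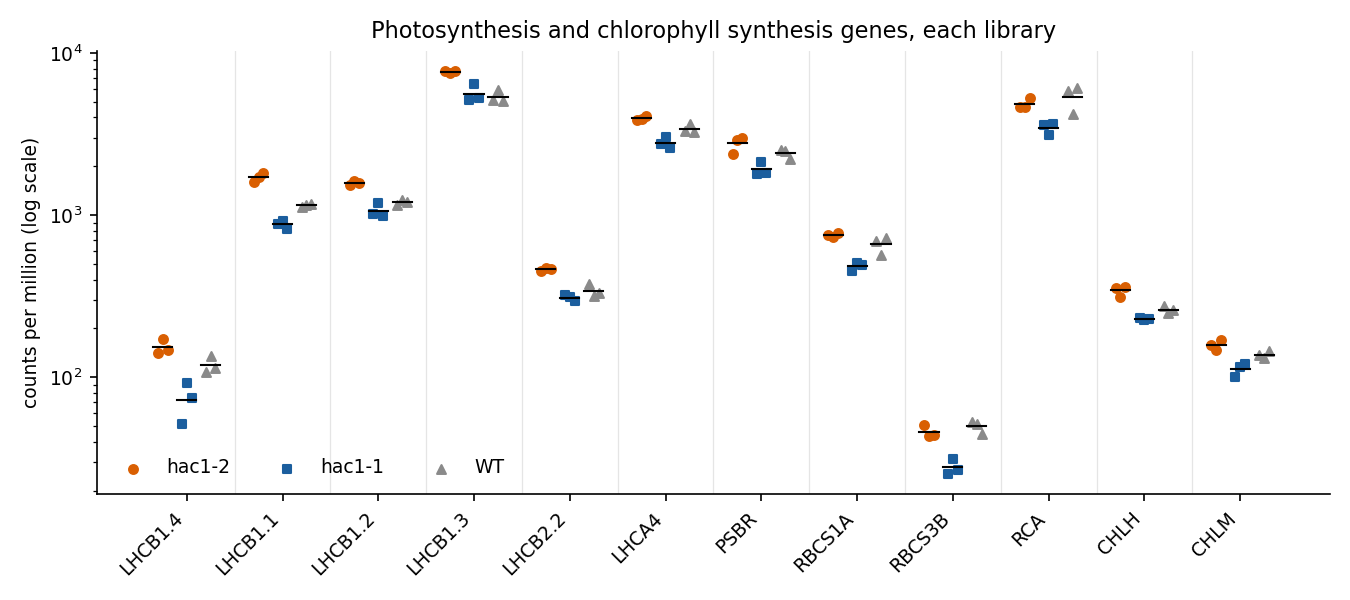
CPM on a log axis in each library for 12 genes of photosynthesis and chlorophyll synthesis, with a bar at each mean of 3. All 12 genes have every hac1-2 library above every hac1-1 library, as for LHCB1.1 with 1604 to 1814 CPM in hac1-2 against 821 to 926 CPM in hac1-1.

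Senescence genes did not move one way. Of 18 measured senescence-associated genes, SAG13 and SAG14 were higher and SAG113, PAP17, SAG21 and SAG15 were lower in hac1-2. Called genes of either direction made up 33.3% of this list and 2.84% of all tested genes. SAG13, a short-chain dehydrogenase, had 4.54, 9.32 and 7.27 CPM in hac1-2, against 1.46, 1.07 and 3.81 CPM in hac1-1 and 16.1 ± 0.963 CPM in WT (SD, n = 3). PAP17, a purple acid phosphatase, had 24.5, 18.3 and 18.3 CPM in hac1-2, against 37.5, 31.1 and 40.2 CPM in hac1-1 and 20.5 ± 3.91 CPM in WT (SD, n = 3). Neither gene overlapped between the lines, with log2 changes of 1.79 ± 0.36 for SAG13 and -0.83 ± 0.17 for PAP17 (SE, adjusted p = 0.00454 and 0.00488). SAG113 is also named HAI1 and is described with the abscisic acid genes. The higher count was 1 without hac1-1 replicate 1, hac1-1 replicate 3, hac1-2 replicate 2 or hac1-2 replicate 3, and the lower count was 2 without WT replicate 1, hac1-1 replicate 1, hac1-1 replicate 3, hac1-2 replicate 1 or hac1-2 replicate 2.

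None of the 14 measured senescence NAC factor genes was called, with 2 at an unadjusted p under 0.05 by edgeR and 0 called by DESeq2 or limma. WRKY factors, a family of stress and senescence regulators, split evenly, with 3 of 19 measured members higher (WRKY48, WRKY22 and WRKY53) and 3 lower (WRKY70, WRKY54 and WRKY38). In either direction, 31.6% of the WRKY list was called, against 2.84% of all tested genes. WRKY70, a regulator of salicylic acid signalling and senescence, had 68.4, 57.6 and 61.0 CPM in hac1-2, against 125, 101 and 148 CPM in hac1-1 and 81.4 ± 4.36 CPM in WT (SD, n = 3). Its close relative WRKY54 had 9.22, 7.20 and 7.81 CPM in hac1-2, against 17.9, 16.9 and 21.5 CPM in hac1-1 and 10.5 ± 2.21 CPM in WT (SD, n = 3). Both sat lower in every hac1-2 library, with log2 changes in a 95% interval of -1.26 to -0.74 for WRKY70 and -1.22 ± 0.21 for WRKY54 (SE, adjusted p = 2.13e-05 and 0.00108), and both were called under all 20 alternatives. WRKY48, WRKY22 and WRKY53 changed by 0.62, 0.54 and 0.43, and 1 of the 3 was called without hac1-1 replicate 2, hac1-1 replicate 3, hac1-2 replicate 1 or hac1-2 replicate 3, and 0 by limma on log2(FPKM + 1).

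A few genes of salicylic acid signalling and surface receptors were among the lower ones. Of 26 measured salicylic acid and defence genes, LURP1 and NIMIN1 were lower in hac1-2, and 6 had an unadjusted p under 0.05, all lower. The list median was -0.07. Genes called lower made up 7.69% of this list and 0.978% of all tested genes, and 2376 of 16560 tested genes had an unadjusted p under 0.05 by edgeR. LURP1, a gene induced in defence against oomycetes, had 67.6, 81.2 and 82.0 CPM in hac1-2, against 142, 162 and 132 CPM in hac1-1 and 194 ± 12.7 CPM in WT (SD, n = 3). NIMIN1, which binds the salicylic acid coactivator NPR1, had 2.48, 0.318 and 1.62 CPM in hac1-2, against 6.64, 7.06 and 4.85 CPM in hac1-1 and 1.79 ± 0.95 CPM in WT (SD, n = 3). No hac1-2 library reached the lowest hac1-1 library for either gene, with changes of -0.92 ± 0.12 for LURP1 and -2.12 ± 0.49 for NIMIN1 (SE, adjusted p = 1.78e-05 and 0.0155). NIMIN1 rests on few counts, and 1 of the 2 genes was called without hac1-1 replicate 1, hac1-2 replicate 2 or hac1-2 replicate 3.

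Among 75 measured genes with RLP, CRK or WAK symbols, receptor families that were grouped after their values were seen, 5 were lower (RLP33, RLP34, RLP50, CRK6 and WAK1), 58 had log2 changes below 0, and the median was -0.28. Genes called lower made up 6.67% of this list and 0.978% of all tested genes, which is a description because of how the list was formed. RLP34, a receptor-like protein, had 26.0, 20.2 and 21.3 CPM in hac1-2, against 43.3, 49.2 and 49.7 CPM in hac1-1 and 34.2 ± 1.35 CPM in WT (SD, n = 3). WAK1, a kinase bound to cell wall pectin, had 44.6, 40.8 and 35.4 CPM in hac1-2, against 68.0, 69.8 and 75.1 CPM in hac1-1 and 57.6 ± 6.25 CPM in WT (SD, n = 3). The 2 genes were lower in all hac1-2 libraries, by -1.08 ± 0.14 for RLP34 and -0.82 ± 0.13 for WAK1 (SE, adjusted p = 2.77e-05 and 0.000267). The count was 3 without hac1-1 replicate 3, hac1-2 replicate 2 or hac1-2 replicate 3, and also 3 by limma on log2(FPKM + 1).

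Some stress transcription factors of the AP2/ERF family were higher in hac1-2. Of 31 measured members of this list, 8 were higher in hac1-2 (ERF022, DDF1, RRTF1, ORA47, ERF5, CBF1, CBF2 and ERF6), with a list median of 0.29. The 8 made up 25.8% of the list, against 1.86% of all tested genes called higher. DDF1, a DREB-type factor linked to gibberellin turnover and salt stress, had 35.2, 37.9 and 44.8 CPM in hac1-2, against 17.3, 12.3 and 15.4 CPM in hac1-1 and 66.5 ± 4.93 CPM in WT (SD, n = 3). ERF022, another member of the DREB group, had 7.84, 9.85 and 6.87 CPM in hac1-2, against 2.79, 1.53 and 3.98 CPM in hac1-1 and 18.6 ± 5.68 CPM in WT (SD, n = 3). For both genes WT was highest, hac1-2 lay in the middle and hac1-1 was lowest, and the changes between the lines were 1.39 ± 0.15 for DDF1 and 1.58 ± 0.32 for ERF022 (SE, adjusted p = 2.5e-06 and 0.0045).

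RRTF1, a redox-responsive factor, had 409.6, 469.8 and 419 CPM in hac1-2, against 258, 287 and 257 CPM in hac1-1 and 603 ± 80.1 CPM in WT (SD, n = 3). ORA47, a factor that activates jasmonate synthesis genes, had 589.9, 767 and 732 CPM in hac1-2, against 466, 427 and 433 CPM in hac1-1 and 765 ± 54.8 CPM in WT (SD, n = 3). CBF1, which turns on cold-regulated genes, had 84.8, 79.8 and 100.2 CPM in hac1-2, against 65.9, 54.9 and 61.5 CPM in hac1-1 and 62.1 ± 1.89 CPM in WT (SD, n = 3). All 3 genes were separated between the lines, and CBF1 was the one for which WT lay with hac1-1 and not with hac1-2. The changes were 0.70 ± 0.11 for RRTF1, 0.66 ± 0.11 for ORA47 and 0.54 ± 0.12 for CBF1 (SE, adjusted p = 0.000401, 0.000685 and 0.0108). The list count was 5 without hac1-1 replicate 3 or hac1-2 replicate 3, and DESeq2 called 2 members lower where edgeR called none and had 3 at an unadjusted p under 0.05.

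Some touch and wound genes were also higher. Of 29 measured members, 6 were higher in hac1-2 (ZAT12, TCH4, ZAT7, PUB23, BAP1 and TCH2), with a list median of 0.24, and the mean of WT was above both lines for all 6. These 6 made up 20.7% of the list, against 1.86% of all tested genes called higher. ZAT12, a zinc finger factor of many stress responses, had 155, 197 and 178 CPM in hac1-2, against 104, 91.7 and 89.8 CPM in hac1-1 and 209 ± 10.3 CPM in WT (SD, n = 3). TCH4, a touch-induced xyloglucan enzyme of the cell wall, had 289, 211 and 251 CPM in hac1-2, against 152, 119.6 and 155 CPM in hac1-1 and 488 ± 80.4 CPM in WT (SD, n = 3). The lines did not overlap for either, with changes of 0.90 ± 0.11 for ZAT12 and 0.81 ± 0.13 for TCH4 (SE, adjusted p = 1.78e-05 and 0.000539). Without hac1-1 replicate 3 the count was 3.

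Of 34 measured jasmonate genes, 1 was called higher and 1 lower, while 1.86% of all tested genes were called higher and 0.978% lower. CYP94B3, which oxidises and so inactivates the active hormone, had 114, 121 and 116 CPM in hac1-2, against 62.1, 55.7 and 59.9 CPM in hac1-1 and 259.8 ± 12.3 CPM in WT (SD, n = 3). JR1, a jasmonate-responsive lectin-like protein, had 13.8, 14.4 and 12.9 CPM in hac1-2, against 28.4, 24.9 and 31.3 CPM in hac1-1 and 39.0 ± 4.26 CPM in WT (SD, n = 3). The 2 genes moved in opposite directions without overlap, by 0.98 ± 0.11 for CYP94B3 and -1.04 ± 0.16 for JR1 (SE, adjusted p = 2.5e-06 and 0.00025).

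**Figure D3:**
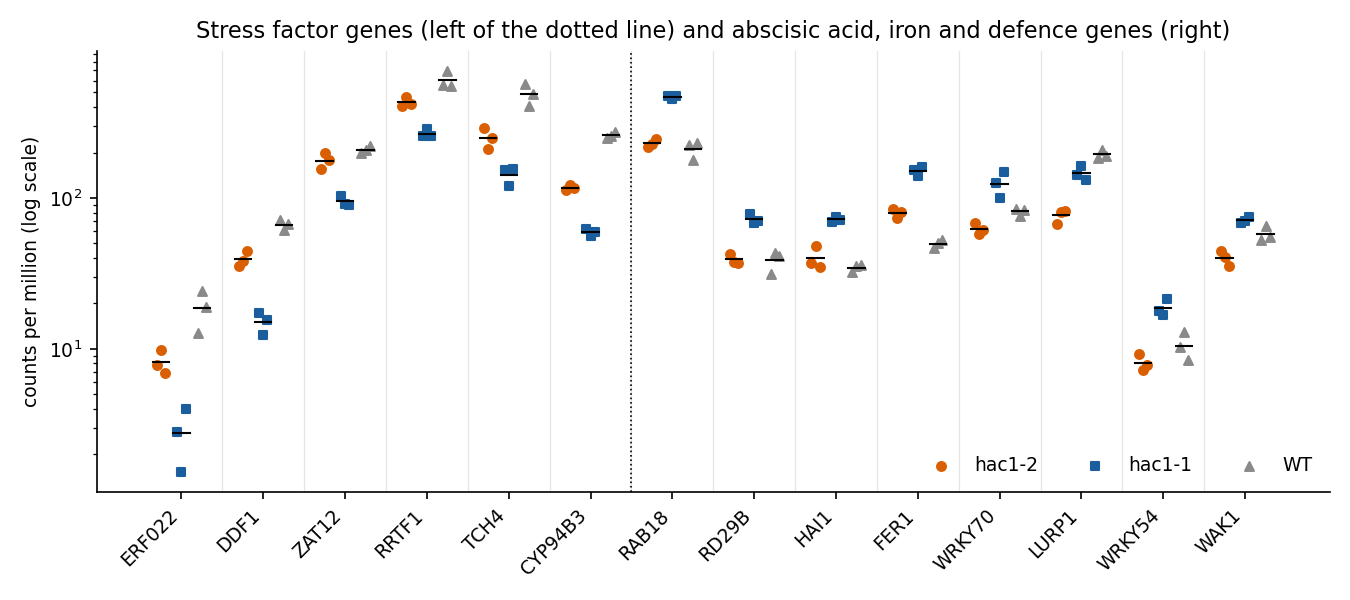
CPM on a log axis in each library for 6 stress factor and jasmonate genes (left of the dotted line) and 8 abscisic acid, iron and defence genes (right), with a bar at each mean of 3. The 6 genes at the left are higher in every hac1-2 library than in any hac1-1 library, with WT highest by its mean, and the 8 at the right are lower in every hac1-2 library.

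A few abscisic acid response genes were lower in hac1-2, at levels near those of WT. Of 46 measured genes of abscisic acid, cold and dehydration response, 4 were called and all 4 were lower in hac1-2 (RAB18, RD29B, HAI1 and HAI2), while the list median was -0.07. The 4 are 8.7% of the list, against 0.978% of all tested genes called lower. RAB18, a dehydrin induced by abscisic acid, had 217, 229 and 246 CPM in hac1-2, against 471, 455 and 476 CPM in hac1-1 and 211 ± 29.7 CPM in WT (SD, n = 3). RD29B, a dehydration-induced gene, had 42.5, 37.8 and 37.3 CPM in hac1-2, against 78.7, 68.7 and 69.9 CPM in hac1-1 and 38.6 ± 6.37 CPM in WT (SD, n = 3). For both genes the hac1-2 libraries lay beside WT and the 3 hac1-1 libraries stood well above, with changes of -1.02 ± 0.11 for RAB18 and -0.89 ± 0.13 for RD29B (SE, adjusted p = 2.5e-06 and 0.000165).

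HAI1, a clade A protein phosphatase that restrains abscisic acid signalling, had 37.2, 48.3 and 34.9 CPM in hac1-2, against 69.1, 75.3 and 71.8 CPM in hac1-1 and 34.6 ± 1.95 CPM in WT (SD, n = 3). Its relative HAI2 had 116, 127 and 113 CPM in hac1-2, against 195, 149 and 174 CPM in hac1-1 and 107 ± 8.53 CPM in WT (SD, n = 3). The hac1-1 libraries were again the high ones without overlap, with changes of -0.84 ± 0.13 for HAI1 and -0.54 ± 0.11 for HAI2 (SE, adjusted p = 0.000312 and 0.00779). WT lay below both lines by its mean for all 4 genes, and HAI2 lost its call without hac1-1 replicate 1 or hac1-2 replicate 3 and by limma on log2(FPKM + 1). FER1, the iron store ferritin, had 84.1, 73.3 and 81.2 CPM in hac1-2, against 152, 139.9 and 160.3 CPM in hac1-1 and 49.6 ± 2.89 CPM in WT (SD, n = 3). FER1 was lower in each hac1-2 library, by -0.92 ± 0.11 (SE, adjusted p = 9.62e-06), and was 1 of 2 called genes among 27 of iron and metal status. Those 2 are 7.41% of the iron list, against 2.84% of all tested genes called.

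The promoters of the 4 called abscisic acid genes are shown because their members moved together. Each run is the 250 bases before the annotated start, 5′ to 3′ on the gene's strand, from the RefSeq TAIR10.1 genome, and capitals mark the letters searched on both strands. The abscisic acid response element core was searched as ACGTG. The G-box, which contains that core, was searched as CACGTG. The DRE core, a dehydration response element, was searched as CCGAC. The W-box, which WRKY factors bind, was searched in the form TTGACC. Its other form, with a final T, was TTGACT. The evening element of clock-regulated genes was searched as AAATATCT. The I-box of light-regulated genes was searched as GATAAG. The rapid stress response element was searched as CGCGTT. The letters TATAAA were counted too but are not in capitals.
RAB18 (chr5:26519448-26519697, minus strand): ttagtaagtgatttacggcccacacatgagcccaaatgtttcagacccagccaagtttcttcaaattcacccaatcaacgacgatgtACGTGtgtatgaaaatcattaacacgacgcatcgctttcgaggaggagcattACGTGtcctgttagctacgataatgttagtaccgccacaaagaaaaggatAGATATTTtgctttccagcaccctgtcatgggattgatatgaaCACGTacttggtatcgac
RD29B (chr5:21236771-21237020, plus strand): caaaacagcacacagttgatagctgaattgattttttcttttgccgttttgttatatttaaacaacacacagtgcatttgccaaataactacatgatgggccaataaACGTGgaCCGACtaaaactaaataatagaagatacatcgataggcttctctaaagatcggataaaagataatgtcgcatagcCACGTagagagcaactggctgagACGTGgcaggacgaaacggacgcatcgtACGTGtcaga
HAI1 (chr5:23896940-23897189, minus strand): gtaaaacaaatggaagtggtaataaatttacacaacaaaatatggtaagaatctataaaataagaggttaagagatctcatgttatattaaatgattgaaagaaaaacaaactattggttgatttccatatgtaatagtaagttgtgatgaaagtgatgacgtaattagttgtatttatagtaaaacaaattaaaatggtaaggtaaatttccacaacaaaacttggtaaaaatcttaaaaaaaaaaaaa
HAI2 (chr1:2282829-2283078, minus strand): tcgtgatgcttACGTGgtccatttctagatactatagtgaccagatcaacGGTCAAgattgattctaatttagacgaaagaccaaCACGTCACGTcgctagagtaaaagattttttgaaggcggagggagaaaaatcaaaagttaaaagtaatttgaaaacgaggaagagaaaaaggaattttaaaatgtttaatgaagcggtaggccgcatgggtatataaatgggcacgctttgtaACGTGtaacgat

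ACGTG or its complement occurred 3 times before RAB18, 4 times before RD29B and 4 times before HAI2, and was not in this window before HAI1. RD29B also held CCGAC, HAI2 a W-box and RAB18 an evening element. Among all 27443 protein-coding promoters of this length, 22.9% held ACGTG, against 28.3% of the 300 promoters of called genes higher in hac1-2 and 32.9% of the 158 of those lower. Among genes called and changed at least 2-fold, the share was 20.7% of 82 higher and 43.2% of 37 lower promoters. CACGTG was in 28 of the 300 higher, 16 of the 158 lower and 6.49% of all promoters, CCGAC in 9.33% of the higher, 8.86% of the lower and 12.0% of all, and the W-box in 25.3% of the higher, 22.8% of the lower and 28.4% of all. The evening element was in 6.33% of the higher, 6.33% of the lower and 4.79% of all promoters, and TATAAA in 48.0% of the higher, 49.4% of the lower and 47.3% of all. GATAAG was in 51 of the 300 higher, 23 of the 158 lower and 12.3% of all promoters and CGCGTT in 5.67% of the higher, 3.16% of the lower and 2.59% of all, both added after the values were seen. Called genes come from tested genes only. Of the 16068 promoters of tested genes, 23.4% held ACGTG, 7.64% CACGTG, 13.2% CCGAC and 28.0% the W-box. The evening element was in 5.06% of these, TATAAA in 45.5%, GATAAG in 12.6% and CGCGTT in 2.85%. A match describes letters in the window and is no evidence of binding.

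For comparison, the promoters of the 2 antenna genes with the largest rises are given in the same way.
LHCB1.1 (chr1:10475970-10476219, minus strand): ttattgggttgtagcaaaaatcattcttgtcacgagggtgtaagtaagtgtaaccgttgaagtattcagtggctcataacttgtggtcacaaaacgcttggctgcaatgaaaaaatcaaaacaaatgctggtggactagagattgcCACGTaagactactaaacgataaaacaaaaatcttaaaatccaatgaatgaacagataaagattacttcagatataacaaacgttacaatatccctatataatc
LHCB1.4 (chr2:14524357-14524606, plus strand): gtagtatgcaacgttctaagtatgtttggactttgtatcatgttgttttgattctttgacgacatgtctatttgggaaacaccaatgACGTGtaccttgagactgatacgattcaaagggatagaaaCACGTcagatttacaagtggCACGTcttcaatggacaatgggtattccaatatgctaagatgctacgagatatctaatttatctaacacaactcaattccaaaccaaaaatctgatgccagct

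LHCB1.1 held ACGTG once in its complement and LHCB1.4 held it 3 times on either strand, although both genes were higher in hac1-2 and the abscisic acid genes lower. Of the 26 called photosystem genes, 38.5% had ACGTG in this window.

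Several genes known for expression in pollen were higher in hac1-2. The list was put together after the values were seen, so its count is a description. Of its 29 genes, 20 were measured and 12 were higher in hac1-2, with a median log2 change of 1.23. As a description, the 12 were 60% of the measured genes, against 1.86% of all tested genes called higher. SKS13, a multicopper oxidase-like protein of pollen, had 26.4, 24.5 and 26.8 CPM in hac1-2, against 9.04, 12.0 and 10.2 CPM in hac1-1 and 56.7 ± 11.7 CPM in WT (SD, n = 3). LRX8, a leucine-rich repeat extensin of the pollen tube wall, had 65.5, 73.9 and 74.4 CPM in hac1-2, against 38.0, 23.2 and 40.0 CPM in hac1-1 and 156 ± 39.2 CPM in WT (SD, n = 3). The lines did not overlap, and both genes were highest in WT, with changes of 1.32 ± 0.18 for SKS13 and 1.08 ± 0.17 for LRX8 (SE, adjusted p = 3.82e-05 and 0.000403).

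BCP1, a pollen protein, averaged 4.24 ± 0.66 CPM in hac1-2 and 1.13 ± 0.406 CPM in hac1-1 (SD, n = 3 each), with a change of 1.86 ± 0.37 (SE, adjusted p = 0.0045). AGP11, an arabinogalactan protein of pollen, averaged 5.90 ± 0.73 CPM in hac1-2 and 1.66 ± 0.69 CPM in hac1-1 (SD, n = 3 each), with a change of 1.78 ± 0.35 (SE, adjusted p = 0.00369). All 12 genes had a WT mean above both lines. Of a separate list of 30 flower, pollen and seed markers, 6 were measured, 3 with log2 changes above 0 and 3 below, and a median of -0.06. BCP1 and VGD1 were called higher in hac1-2, while the other 4 ran from -2.16 to 0.05 and were not called. At 0 counts in all 6 mutant libraries were 18 of the 30, among them AP3, a petal and stamen identity gene, and the seed storage gene CRA1. Without hac1-1 replicate 1, hac1-1 replicate 2 or any 1 hac1-2 library, 1 of BCP1 and VGD1 was called. The measured markers summed to 63.8 to 77.8 CPM in hac1-2, 60.3 to 75.3 CPM in hac1-1 and 116 to 134 CPM in WT, and their part in the result was not tested. The pollen count was 7 without hac1-1 replicate 1, 6 without hac1-2 replicate 2 and 5 by limma on log2(FPKM + 1).

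**Figure D4:**
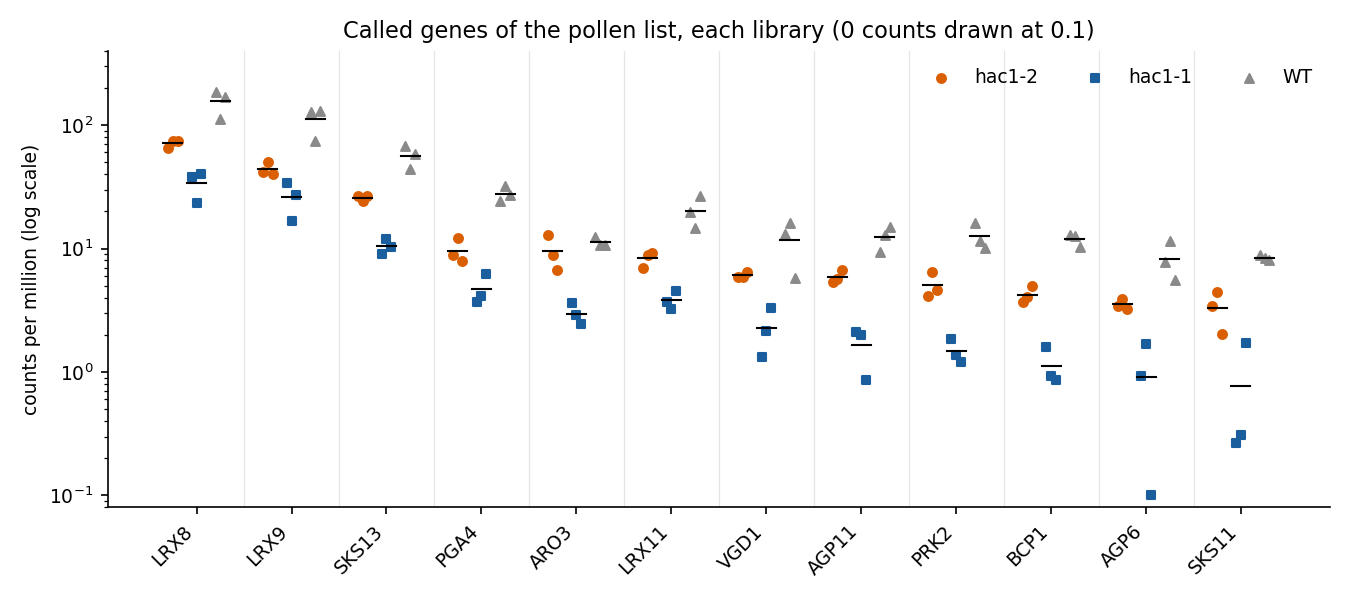
CPM on a log axis in each library for the 12 called genes of the pollen list, ordered by their mean in hac1-2, with a bar at each mean of 3 and 0 counts drawn at 0.1. In each of the 12 genes every hac1-2 library lies above every hac1-1 library and the mean of WT is the highest of the 3 groups.

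The single largest change was a pseudogene. AT2G09187 (chr2:3639603-3646073, minus strand) had 1.79, 1.80 and 2.96 CPM in hac1-2, against 613, 812 and 829 CPM in hac1-1 and 1.95 ± 0.459 CPM in WT (SD, n = 3), a log2 change of -8.43 ± 0.19 (SE, adjusted p = 4.26e-22). All 3 hac1-1 libraries were high and no other library was. Of the 5 annotated genes on each side, 9 were in the count table, and none summed to more than 148 counts over the 3 hac1-1 libraries.

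Over all called genes, whatever their level, the largest rise had a log2 change of 6.43. Large rises without overlap, among called genes averaging 5 CPM or more (log2 change ± SE), included PHI-1, a phosphate-induced protein (1.46 ± 0.14), AT2G16660, a major facilitator transporter (1.55 ± 0.17), and AT3G01270, a pectate lyase (1.45 ± 0.25). PHI-1 had 37.4, 35.8 and 35.4 CPM in hac1-2, against 13.4, 14.4 and 11.6 CPM in hac1-1 and 62.5 ± 1.94 CPM in WT (SD, n = 3). AT2G16660 had 44.0, 39.4 and 40.5 CPM in hac1-2, against 16.5, 14.9 and 10.7 CPM in hac1-1 and 22.7 ± 4.62 CPM in WT (SD, n = 3). WT was thus highest for PHI-1 and between the lines for AT2G16660. Other large falls were AT3G28510, a nucleoside triphosphate hydrolase (-2.12 ± 0.34), PCR1, a cadmium resistance protein (-1.53 ± 0.26), the dehydrin gene XERO1 (-1.39 ± 0.29) and MLP28 (-1.17 ± 0.17). XERO1 had 3.44, 5.72 and 4.85 CPM in hac1-2, against 13.3, 15.3 and 8.31 CPM in hac1-1 and 3.87 ± 1.17 CPM in WT (SD, n = 3), so hac1-1 stood above the other groups as it did for RAB18.

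Genes of splicing and ribonucleoproteins, grouped by annotation after values were seen, had 7 of 112 measured members lower in hac1-2 and a median of -0.10. Genes called lower made up 6.25% of this list and 0.978% of all tested genes, again a description because of how the list was formed. AT2G42270, a helicase of the U5 small nuclear ribonucleoprotein, had 142, 151 and 118 CPM in hac1-2, against 191, 209 and 265 CPM in hac1-1 and 148 ± 10.2 CPM in WT (SD, n = 3). SR30, a serine-arginine splicing protein, had 34.7, 36.6 and 32.6 CPM in hac1-2, against 41.2, 61.8 and 62.3 CPM in hac1-1 and 39.6 ± 5.15 CPM in WT (SD, n = 3). Both were lower in each hac1-2 library, by -0.69 ± 0.12 for AT2G42270 and -0.66 ± 0.15 for SR30 (SE, adjusted p = 0.00142 and 0.012). The count was 4 without hac1-1 replicate 1, 3 without hac1-1 replicate 3 or hac1-2 replicate 1, 2 without hac1-2 replicate 3 and 2 by limma on log2(FPKM + 1).

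Several other lists held 1 to 3 called genes, given here with their log2 changes ± SE. Over all tested genes, 2.84% were called. Of 17 measured heat shock genes, 3 were lower in hac1-2, with a list median of -0.29. They were the endoplasmic reticulum chaperones BIP2 (-0.70 ± 0.12) and BIP1 (-0.45 ± 0.12), near-identical copies whose reads may be shared, and HSFA7A, a heat shock factor (-1.39 ± 0.34). Without hac1-1 replicate 1, hac1-1 replicate 3, hac1-2 replicate 1 or hac1-2 replicate 2, 1 of the 3 was called. Of 15 measured cell wall loosening genes, 3 were higher, with a list median of 0.49, namely TCH4, the expansin EXPA1 (1.38 ± 0.38) and EXLA1, an expansin-like protein (1.03 ± 0.20). EXPA1 lost its call without WT replicate 3, hac1-1 replicate 1, hac1-1 replicate 2 or any 1 hac1-2 library. Of 45 measured starch and sugar genes, BAM3, a chloroplast beta-amylase (0.42 ± 0.10), and PHS2, a glucan phosphorylase (0.41 ± 0.10), were higher and SUS3, a sucrose synthase (-1.21 ± 0.26), was lower. Both BAM3 and PHS2 lost their calls without hac1-1 replicate 3, hac1-2 replicate 1 or hac1-2 replicate 3, PHS2 also without hac1-1 replicate 1 or hac1-2 replicate 2, and SUS3 lost its call without hac1-2 replicate 2. Beside FER1 in the iron list, FRO6, a leaf ferric reductase, was higher (0.52 ± 0.11). Of 21 measured cytokinin genes, only ARR5, a response regulator, was called. It was higher (1.13 ± 0.26) and lost its call without hac1-2 replicate 2. Of 24 auxin response genes, only GH3.5, an enzyme that joins auxin and salicylic acid to amino acids, was called, and was lower (-1.09 ± 0.21). Called higher were ACS6 of 16 ethylene genes (0.51), 1 of 17 indole glucosinolate genes (1.97) and 1 of 33 nitrogen and phosphate genes (0.63), where PAP17 was lower. In each of these 3 lists the higher count fell to 0 in some fits with 1 library left out.

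Lists without a called gene were senescence NAC factors, circadian clock, light signalling, flowering, anthocyanin synthesis, aliphatic glucosinolates, DNA methylation and silencing, and histone deacetylases. Together they held 175 measured members, of which 26 had an unadjusted p under 0.05 by edgeR, DESeq2 called 2 and limma on log2(FPKM + 1) called 0. Over all 16560 tested genes, 2376 had an unadjusted p under 0.05 by edgeR, so the 26 are not set apart from the rest. The list medians were -0.02 for 34 clock genes, -0.01 for 28 light signalling genes, -0.14 for 25 flowering genes and -0.02 for 14 histone deacetylase genes. The marker lists of guard cell (10 measured), epidermis and trichome (14), phloem and xylem (10), meristem (5) and root (1) also had no called member by edgeR, DESeq2 or limma, with 3 members at an unadjusted p under 0.05 by edgeR.

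**Figure D5:**
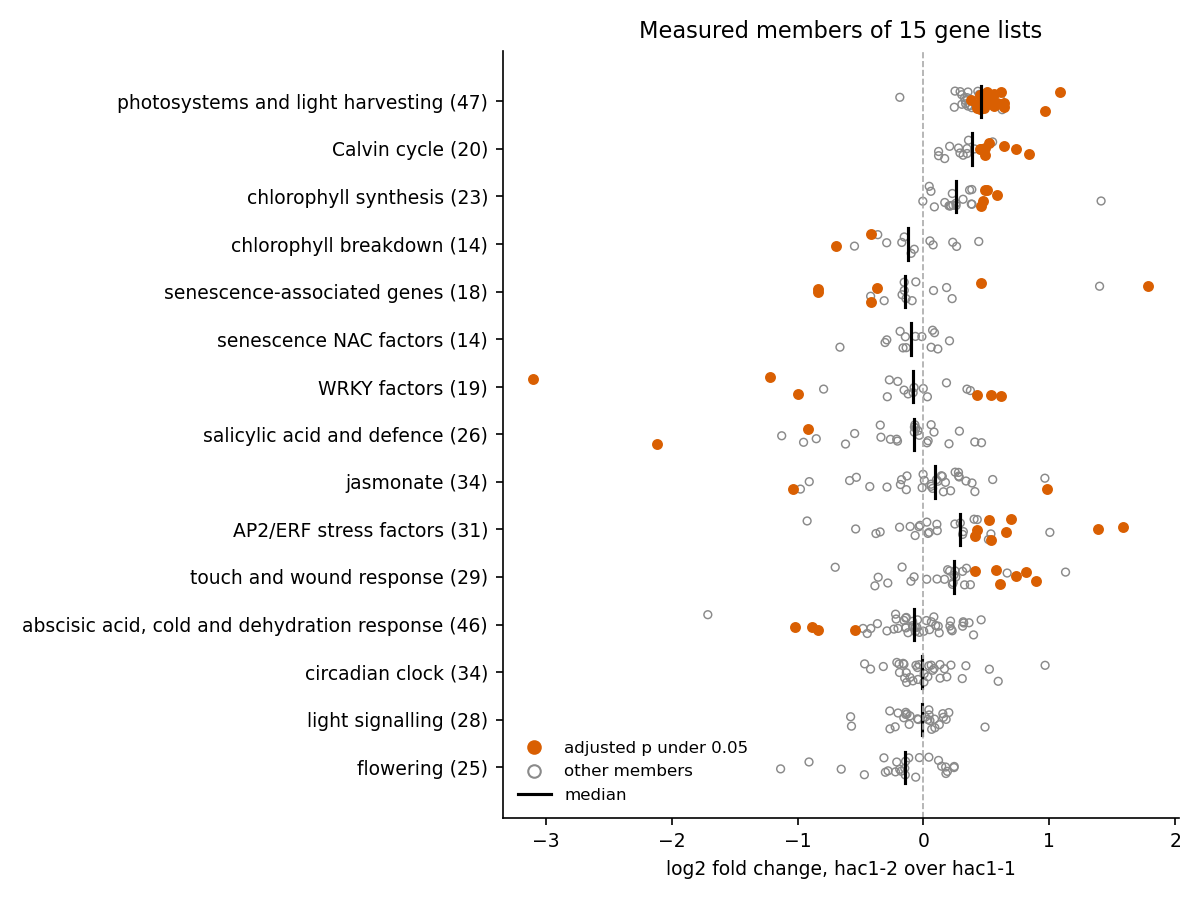
Log2 fold change of hac1-2 over hac1-1 for each measured member of 15 gene lists, with called genes filled, other members open, and a black bar at each median (number measured in brackets). The photosystem list is centred at 0.46 with 46 of 47 members above 0, while the clock, light signalling and flowering lists hold no called member.

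The WT level was set beside both lines for each called gene. Among the 308 genes higher in hac1-2, the WT mean lay above both lines for 165, between them for 124 and below both for 19. Among the 162 genes lower in hac1-2, it lay above both for 48, between them for 89 and below both for 25. These are counts without a test, and WT leaves are at another stage by their label. No called gene was at 3 or fewer counts in each library of 1 line while averaging 5 CPM in the other.

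Called genes were spread over the genome, from 2.33% of tested genes on chromosome 2 to 3.24% on chromosome 1. No run of 10 neighbouring tested genes held more than 3 called genes. Of 16443 such runs, which overlap, 60 held 3, some with genes moving both ways. Among several regions were the LHCB1 cluster (LHCB1.1, LHCB1.2 and LHCB1.3), the HAC1 region (AT1G78995, HAC1 and PSBR), and that of CBF1, CBF2 and AT4G25580. Directly neighbouring tested genes that were both called numbered 20 pairs, of which 13 moved the same way. Of all tested genes 2.84% were called, and 65.5% of the called genes were higher. The pair counts were not compared with a number from random placement, so they show no clustering by themselves. By type, 458 called genes were protein-coding, and of 105 tested pseudogenes 1 was higher and 3 were lower in hac1-2.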

How the data were processed

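Per the labels, leaf total RNA was sequenced with breath adapter directional libraries (BrAD-seq). Deposited were count values, unnormalized, for 33323 genes and FPKM for 18168 genes, which the authors made against TAIR10 per the submitters' processing notes. The aligner, counter, strand and annotation version are not given in the sources used here. Gene names and coordinates came from TAIR10.1, which held 32835 of 33323 identifiers. The test was edgeR 4.0.16 under R 4.3.3. All 9 libraries shared 1 dispersion fit after filterByExpr (minimum count 10) and TMM scaling. Alternatives were other scalings and filters, DESeq2 1.42.0, limma 3.58.1 on log2(FPKM + 1) or log2(FPKM + 0.1), the 6 mutant libraries alone, a replicate block, and each library left out. In simulated counts of 16345 genes, recovery was 42% at a 1.5-fold change, 80% at 2-fold and 98% at 4-fold, with 8.57% false calls. Changes were planted only in genes averaging at least 5 CPM, 50 per fold, so recovery of weaker genes was not measured. The simulated spread was that of the fit.

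Named genes were HAC1 and other acetyltransferases, the 12 largest rises and falls, up to 4 genes per list, neighbours of HAC1, the most abundant called genes and crowded windows. Others were added after values were seen. Members and lists were chosen with earlier results of these data known. The 95% intervals come from the fit and include the spread between libraries, while the 3-count limit covers counting error only. The chromatin data in the title were not analysed here.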

Additional observations from a re-analysis of the deposited data

How the results depend on the processing

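The 470 called genes stayed within 1.5 times under other scalings, the 5 CPM filter, DESeq2 and the 6 mutant libraries alone. The count was 721 with no filter on low counts (467 higher, 254 lower). Limma gave 252 on log2(FPKM + 1) (184 higher, 68 lower), 241 on log2(FPKM + 0.1) (181 higher, 60 lower) and 260 at a mean FPKM of at least 1 (190 higher, 70 lower). Genes changed at least 2-fold numbered 125, against 74 at a mean of at least 5 CPM, 77 with limma on log2(FPKM + 1) and 76 with its filter. The gene lists held 98 called genes, 65 with limma on log2(FPKM + 1) and 61 on log2(FPKM + 0.1). Leaving out single libraries gave 204 to 548 called genes, 139 to 343 higher, 65 to 205 lower, 77 to 128 changed at least 2-fold and 54 to 112 in the lists. The lowest totals came without hac1-2 replicate 3 (204), hac1-1 replicate 3 (240) and hac1-2 replicate 2 (249). Among promoters of genes changed at least 2-fold, the higher ones held ACGTG in 20.7%, CACGTG in 1.22%, the W-box in 31.7% and TATAAA in 54.9%, and the lower ones ACGTG in 43.2%. At a limit of 10 counts 1 gene was off in hac1-1, and windows of 20 genes held up to 5 called genes. The replicate block gave 715 called genes, 268 of them lower, and deviations of same-numbered libraries correlated by 0.00805 to 0.132. Differently numbered libraries were not compared in this way, so whether the numbers pair the samples is not settled. The causes were not tested. Among the 147 named genes that were called, 0 changed sign under any alternative, and the sign was not checked this way for the other called genes.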
